A study of Mus musculus with 16 samples.

Results

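Primary mouse lung fibroblasts that had received a small interfering RNA (siRNA) against Loxl2 were compared with the same kind of cells that had received a scrambled siRNA. A siRNA is a short double-stranded RNA that directs the breakdown of a matching messenger RNA. The comparison rests on 8 of the 16 one-colour (Cy3) microarrays of the series, chosen by their titles: 4 arrays labelled siLoxL2 (siLoxl2 here) and 4 labelled scr. All cells had been passaged at least 3 times, were seeded in 6-well plates, and were harvested 48 hours after transfection. The series also holds 4 arrays each of cells given an siRNA against Lox (siLox) or Loxl1 (siLoxl1). The labels describe a knockdown in each of these groups, although the series title speaks of exogenous expression, and the labels were followed. They name no mouse strain, age or sex, and do not say whether the 4 replicates of a group came from separate mice or cultures, so that p-values measure only the spread between these samples, which may be technical. Each probe's signal is given as log2 intensity minus the 75th percentile over non-control probes of the same array.

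The scr arrays lie on slide 1 and the siLoxl2 arrays on slide 2, and the slides were scanned on different days. Every difference between siLoxl2 and scr is therefore also a difference between the slides, and slide and siRNA cannot be told apart. The siLox arrays share slide 1 with scr, and the siLoxl1 arrays share slide 2 with siLoxl2. Within the series, siLoxl2 can be compared inside 1 slide only with siLoxl1. That comparison, which also tests whether the knockdowns of Loxl2 and Loxl1 differ against their shared scr arrays, is given with the main results. Slide 2 was the brighter slide: the 75th percentile was 8.67 to 8.90 (log2) on the scr arrays and 9.74 to 9.84 on the siLoxl2 arrays, and at most 51.6% of 59305 non-control spots were well above background on the scr arrays, against 60.7% to 61.3% on the siLoxl2 arrays. No spot was saturated. Of 10 spike-in probes, which report control RNA added during labelling, 7 were above background on all 16 arrays, and after scaling these were 0.41 to 1.16 (log2, median 0.49) higher in siLoxl2 than in scr, and -0.12 to 0.01 different between siLoxl2 and siLoxl1. Pairs of scr arrays correlated at r = 0.987 to 0.994 and pairs of siLoxl2 arrays at 0.996 to 0.997 (across genes, which are not independent replicates), and the median standard deviation of a gene within its group was 0.167 in scr against 0.0899 in siLoxl2. Precision is limited by the 4 arrays in each group.

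Lysyl oxidases are copper enzymes that oxidise lysine residues of collagen and elastin, the first step in cross-linking these fibres. The family has the members Lox, Loxl1, Loxl2, Loxl3 and Loxl4, and LOXL2 is known for its action on basement membrane collagen and for its abundance in scarred tissue. Fibroblasts are the main makers of matrix in the lung. They also answer to double-stranded RNA: cellular sensors switch on the gene of interferon beta (Ifnb1), the secreted interferon acts back on the cells through its receptor, and a large set of antiviral genes is switched on through a DNA element called the interferon-stimulated response element. NF-kB is a family of transcription factors that act in inflammation, and its targets include many chemokines and its own inhibitors.

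The sequences on which the results turn are given first. The array holds 3 probes for Loxl2, and the letters of those that have 1 forward reading frame free of stop codons are shown, because they report the targeted messenger RNA. They lie on the + strand of chromosome 14 in mouse build mm9, at chr14:70090017-70090076 and chr14:70092141-70092200 in that order. The third probe lies at chr14:70095254-70095313 and is the brightest.
Loxl2 probe, upstream: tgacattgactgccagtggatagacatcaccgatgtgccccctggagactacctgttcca
Loxl2 probe, downstream: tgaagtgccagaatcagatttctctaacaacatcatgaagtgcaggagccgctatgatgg

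The next sequences are promoters of genes that were lower in siLoxl2 than in scr, each the 250 bases before the annotated start in RefSeq, build GRCm38.p6, written 5′ to 3′ on the strand of the gene. The interferon-stimulated response element was searched as GAAA and GAAA with any 2 bases (NN) between them, and the NF-kB element as GGGA and TTCC with any 2 bases (NN) between them, both on either strand. The NF-kB letters were widened by 1 N, and the promoters chosen, after sequences and values had been seen. The first set holds the response element (capitals) and belongs to the interferon response genes with the most negative differences among those with a match, leaving out Oas1a, a near copy of Oas1g. The windows are chr5:120887614-120887863 (- strand) for Oas1g, chr5:92348890-92349139 (- strand) for Cxcl10, chr5:120777660-120777909 (- strand) for Oas3 and chr12:26456453-26456702 (- strand) for Rsad2.
Oas1g: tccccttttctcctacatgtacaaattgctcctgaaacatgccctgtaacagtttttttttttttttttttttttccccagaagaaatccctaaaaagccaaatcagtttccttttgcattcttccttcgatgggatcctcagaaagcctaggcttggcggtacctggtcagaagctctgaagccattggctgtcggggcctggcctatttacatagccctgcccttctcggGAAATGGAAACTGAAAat
Cxcl10: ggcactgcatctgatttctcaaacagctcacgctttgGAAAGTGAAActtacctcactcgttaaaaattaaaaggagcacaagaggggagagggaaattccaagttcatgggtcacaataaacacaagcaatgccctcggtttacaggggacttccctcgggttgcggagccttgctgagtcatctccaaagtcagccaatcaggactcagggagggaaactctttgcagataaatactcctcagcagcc
Oas3: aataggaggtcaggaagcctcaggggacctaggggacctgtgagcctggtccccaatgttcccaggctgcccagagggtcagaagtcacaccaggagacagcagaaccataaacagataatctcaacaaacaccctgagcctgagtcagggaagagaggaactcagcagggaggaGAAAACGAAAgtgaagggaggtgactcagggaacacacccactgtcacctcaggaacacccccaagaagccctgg
Rsad2: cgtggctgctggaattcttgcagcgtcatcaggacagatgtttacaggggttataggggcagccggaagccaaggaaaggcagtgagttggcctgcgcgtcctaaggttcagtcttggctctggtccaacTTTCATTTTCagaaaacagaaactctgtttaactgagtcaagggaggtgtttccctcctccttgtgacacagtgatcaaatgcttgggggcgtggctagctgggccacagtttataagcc
The matches begin at -18 and -12 from the start of Oas1g, where they overlap, at -213 for Cxcl10, at -75 for Oas3 and at -120 for Rsad2, where the motif lies on the opposite strand. The Cxcl10 window also holds 1 NF-kB match, at -159, left in lower case.

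The second set holds the NF-kB element (capitals) and belongs to Ifnb1 and the neutrophil-attracting chemokines Cxcl2, Cxcl1 and Cxcl3. The windows are chr4:88522795-88523044 (- strand) for Ifnb1, chr5:90903649-90903898 (+ strand) for Cxcl2, chr5:90890995-90891244 (+ strand) for Cxcl1 and chr5:90785851-90786100 (+ strand) for Cxcl3.
Ifnb1: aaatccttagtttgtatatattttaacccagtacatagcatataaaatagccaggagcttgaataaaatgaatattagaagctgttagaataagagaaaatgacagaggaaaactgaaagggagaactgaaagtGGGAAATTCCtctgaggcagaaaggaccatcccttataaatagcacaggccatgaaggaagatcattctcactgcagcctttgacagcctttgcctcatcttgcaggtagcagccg
Cxcl2: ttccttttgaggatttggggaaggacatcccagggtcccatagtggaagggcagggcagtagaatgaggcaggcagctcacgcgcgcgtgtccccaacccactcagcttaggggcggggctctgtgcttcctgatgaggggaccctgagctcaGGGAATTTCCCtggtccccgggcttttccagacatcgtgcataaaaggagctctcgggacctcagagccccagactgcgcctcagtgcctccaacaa
Cxcl1: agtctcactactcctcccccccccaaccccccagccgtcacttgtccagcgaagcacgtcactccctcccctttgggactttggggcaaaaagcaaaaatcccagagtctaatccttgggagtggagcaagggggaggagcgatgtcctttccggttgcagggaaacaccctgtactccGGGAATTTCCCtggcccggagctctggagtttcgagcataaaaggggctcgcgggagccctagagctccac
Cxcl3: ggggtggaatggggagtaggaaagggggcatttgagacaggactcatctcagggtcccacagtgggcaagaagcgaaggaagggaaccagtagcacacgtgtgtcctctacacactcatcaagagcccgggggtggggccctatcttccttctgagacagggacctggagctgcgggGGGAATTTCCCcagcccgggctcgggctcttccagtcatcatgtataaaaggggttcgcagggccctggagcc
The match begins at -116 in Ifnb1. The chemokine windows each hold a pair of overlapping matches, at -97 and -96 in Cxcl2, at -71 and -70 in Cxcl1, and at -73 and -72 in Cxcl3. Over the lists described below, the interferon element was found in 17 of the 41 interferon response genes that matched a promoter by symbol (53 in the list, 41.5% of those matched), against 936 of 27025 genes with a window (3.46%) and 407 of 12454 tested genes with one (3.27%). The NF-kB element was found in 7 of 22 matched NF-kB list genes (31 measured in the list, 31.8%), against 368 of 27025 (1.36%) and 179 of 12454 tested (1.44%). Its letters were widened after sequences and values had been seen, and both lists were chosen with earlier results known. These shares are therefore no test of whether the lists hold more matches. A match is a description of the letters and not a binding site.

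Loxl2 itself was lower in siLoxl2 than in scr at each of its 3 probes. At the probe that stands for the gene, the 4 scr arrays gave 6.80, 6.47, 6.42 and 6.09 and the 4 siLoxl2 arrays 5.25, 5.58, 5.35 and 5.35. The groups did not overlap, and the difference was -1.06 ± 0.14 (log2, SE; limma adjusted p = 1.04e-05), or 47.8% of the scr signal. At the probe printed as downstream the scr arrays gave 4.80, 4.54, 4.61 and 4.34 and the siLoxl2 arrays 2.98, 2.99, 2.91 and 3.06, which is 33.3% of scr. At the upstream probe they gave 5.35, 5.14, 5.26 and 4.92 against 3.67, 3.74, 3.62 and 3.77, which is 36.2% of scr. Every siLoxl2 array lay below every scr array at all 3 probes, with an exact two-sided permutation p of 0.0286 at each, the smallest that 4 against 4 arrays can give. Such a separation was common: 4548 of 22649 genes were lower in siLoxl2 than in scr without overlap. The 3 probes read 1 gene on the same arrays and are not separate tests.

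The siLoxl1 arrays, whose siRNA was aimed at another gene, were also lower than scr at these Loxl2 probes, by -0.76, -1.21 and -1.12 in the order of the gene's probe, the downstream and the upstream one. Within slide 2, siLoxl2 was below siLoxl1 by -0.30, -0.38 and -0.34. The siLoxl2 arrays lay below all siLoxl1 arrays at every Loxl2 probe (exact permutation p = 0.0286), but for the gene the difference missed the threshold in the fit across all genes (limma adjusted p = 0.277). A total of 3325 of 22649 genes were lower in siLoxl2 than in siLoxl1 without overlap. Within the slide, siLoxl2 thus held 81.0%, 76.9% and 78.7% of the Loxl2 signal of siLoxl1.

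The other family members moved by less than Loxl2 or upwards. Lox rose by 0.83 ± 0.24 (adjusted p = 0.00795, limma), from 3.88 to 4.16 in scr to 4.82 to 4.96 in siLoxl2, and its other probe by 0.44. Loxl4 fell by 0.52 at both of its probes (adjusted p = 0.000165 for the gene, limma), and Loxl3 fell by 0.26 (adjusted p = 0.0063). Loxl1 did not pass: its scr arrays gave 5.79, 5.61, 5.56 and 5.35 and its siLoxl2 arrays 5.65, 5.80, 5.79 and 5.78, a difference of 0.18 ± 0.10 (adjusted p = 0.15, limma) that was -0.06 with quantile normalization. Loxl1 did pass as higher with another background correction (normexp, 0.32, limma adjusted p = 0.00717) and without scr replicate 1 (0.25, limma adjusted p = 0.0473). The other Loxl1 probe rose by 0.25 (limma adjusted p = 0.049 over all probes). Against siLoxl1, where Loxl1 was the target, Loxl1 was 1.15 higher in siLoxl2 (adjusted p = 4.15e-05), while Lox, Loxl3 and Loxl4 differed by 0.14, -0.09 and 0.34 and did not pass.

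**Figure D1:**
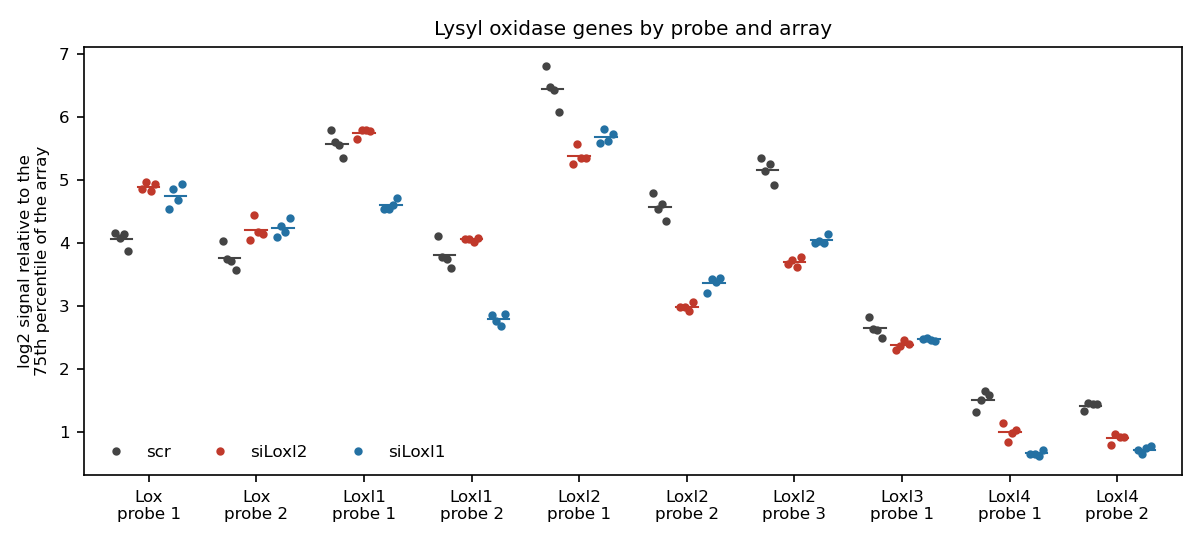
Signal of the probes of the 5 lysyl oxidase genes (log2 intensity minus the array's 75th percentile) on the scr, siLoxl2 and siLoxl1 arrays; points are arrays and bars are group means. At all 3 Loxl2 probes the siLoxl2 arrays lie below the scr arrays and, by 0.30 to 0.38, below the siLoxl1 arrays.

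Over all 22649 genes measured, 9369 (41.4%) were higher in siLoxl2 than in scr and 5297 (23.4%) lower at an adjusted p under 0.05 (limma, Benjamini-Hochberg). A change of at least 1 on the log2 scale was reached by 1932 higher genes (8.53%) and 1187 lower genes (5.24%), and the 4 siLoxl2 arrays did not overlap the 4 scr arrays for 12979 genes (57.3%). The median of all differences was 0.17. These shares are the background against which each list is read. Of the genes called, 63.9% were higher in siLoxl2, and this share was 53.8% with quantile normalization, 53.7% in the authors' deposited table, 44.1% with another background correction (normexp) and 43.1% with no filter on dim probes. The median of all genes was 0.07, 0.06, -0.09 and -0.10 under those settings, so that the direction of small differences depends on the scaling used. Within slide 2, siLoxl2 differed from siLoxl1 far less: 320 genes were higher (1.41%) and 585 lower (2.58%), 4598 did not overlap (20.3%), and the median was -0.03. The lower count was 230 without siLoxl2 replicate 4, 248 with quantile normalization (332 higher), 1180 with median scaling and 1383 with the 8 arrays of slide 2 fitted alone, so that this background share is itself loose.

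**Figure D2:**
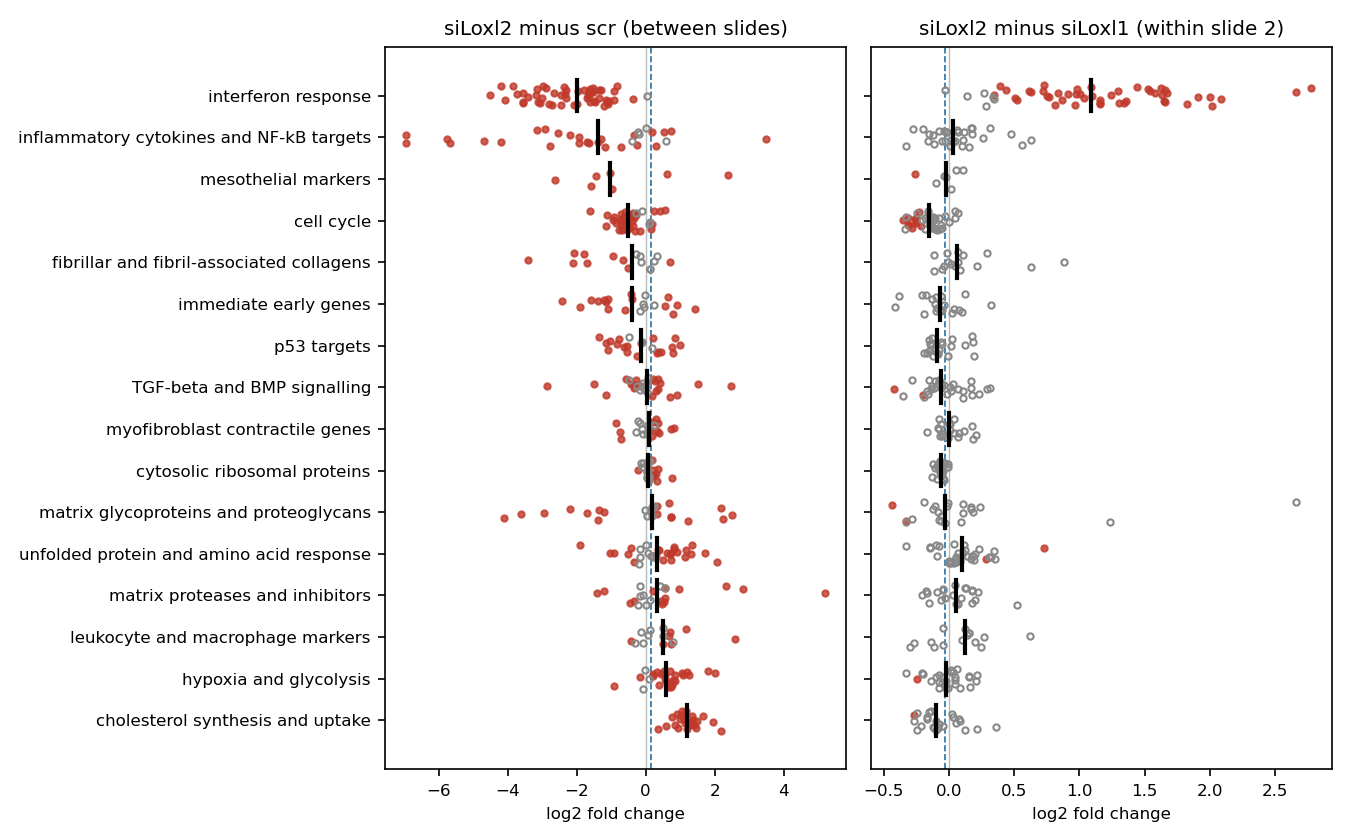
Differences of the members of 16 gene lists (log2), siLoxl2 minus scr on the left and siLoxl2 minus siLoxl1 within slide 2 on the right; each point is a gene, filled where it passed an adjusted p of 0.05, the black bar is the list median and the dashed line the median of all genes (0.17 and -0.03). The interferon response lies at a median of -1.98 on the left and 1.09 on the right, whereas the NF-kB list lies at -1.38 on the left and 0.03 on the right.

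The interferon response was the list with the largest share of lower genes: 52 of its 53 measured members were lower in siLoxl2 than in scr, 48 of them by at least 1, and none was higher. The list median was -1.98. For these 52 genes the groups did not overlap. Gbp4, a guanylate-binding protein of the antimicrobial defence, fell by 4.51 ± 0.40 (adjusted p = 2.55e-07, limma). The antiviral GTPase Mx2 gave 4.20, 5.29, 5.14 and 5.66 in scr and 0.64, 0.85, 1.03 and 1.04 in siLoxl2, a fall by 4.18 ± 0.26 (adjusted p = 7.7e-09). Its relative Mx1 fell by 3.84. Oas1g, an oligoadenylate synthetase of the pathway that degrades viral RNA, was above background on all 4 scr arrays and on no siLoxl2 array, and was at least 7.36-fold lower.

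The regulators and effectors of the response were lower as well. Irf7, the transcription factor that amplifies interferon production, gave 4.60, 4.78, 4.65 and 4.83 in scr and 0.60, 1.12, 1.48 and 1.48 in siLoxl2 (a fall by 3.55). Irf9, a transcription factor of the interferon signal, fell by 1.13. The sensors of viral RNA Ifih1, Ddx58 and Tlr3 fell by 1.98, 1.09 and 2.08. Among effectors, Ifit1 fell by 2.65, Rsad2 by 3.12, Oas3 by 3.56, and the ubiquitin-like modifier Isg15 by 1.67. The immunoproteasome subunits Psmb8 and Psmb9 fell by 3.14 and 3.07, the peptide transporter Tap1 by 1.60, and the class I genes H2-K1 and H2-D1 by 1.55 and 1.71. B2m, their light chain, fell by 0.36, the smallest fall in the list. Oas1b did not pass at the probe that stands for it, with a difference of 0.03 (adjusted p = 0.719), while its other probes were at -2.92 to -0.65.

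Against siLoxl1 on the same slide the direction was the opposite: 47 of the 53 interferon genes were higher in siLoxl2, none was lower, and the median was 1.09. Mx2, at 0.64 to 1.04 in siLoxl2, lay at -1.72 to -0.78 in siLoxl1, so that siLoxl2 was 2.01 higher (adjusted p = 0.000583, limma). Mx1 was 2.78 higher, Irf7 1.65 and Ifit1 1.65. Gbp4 was 2.66 higher, but it was above background on no siLoxl1 array, so that the size of this difference is not settled. The order of the groups was therefore scr above siLoxl2 above siLoxl1. The mean level of the list per array was 4.38 to 4.50 in scr, 1.98 to 2.39 in siLoxl2 and 0.80 to 1.36 in siLoxl1, with no overlap between any of these. The siLox arrays, which share slide 1 with scr, lay at 4.52 to 4.60. The list was thus high on every array of slide 1 and low on every array of slide 2, and the part of the slide in its difference between siLoxl2 and scr cannot be told apart from that of the siRNA. In bulk RNA, a lower level in every cell and fewer responding cells cannot be told apart either.

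**Figure D3:**
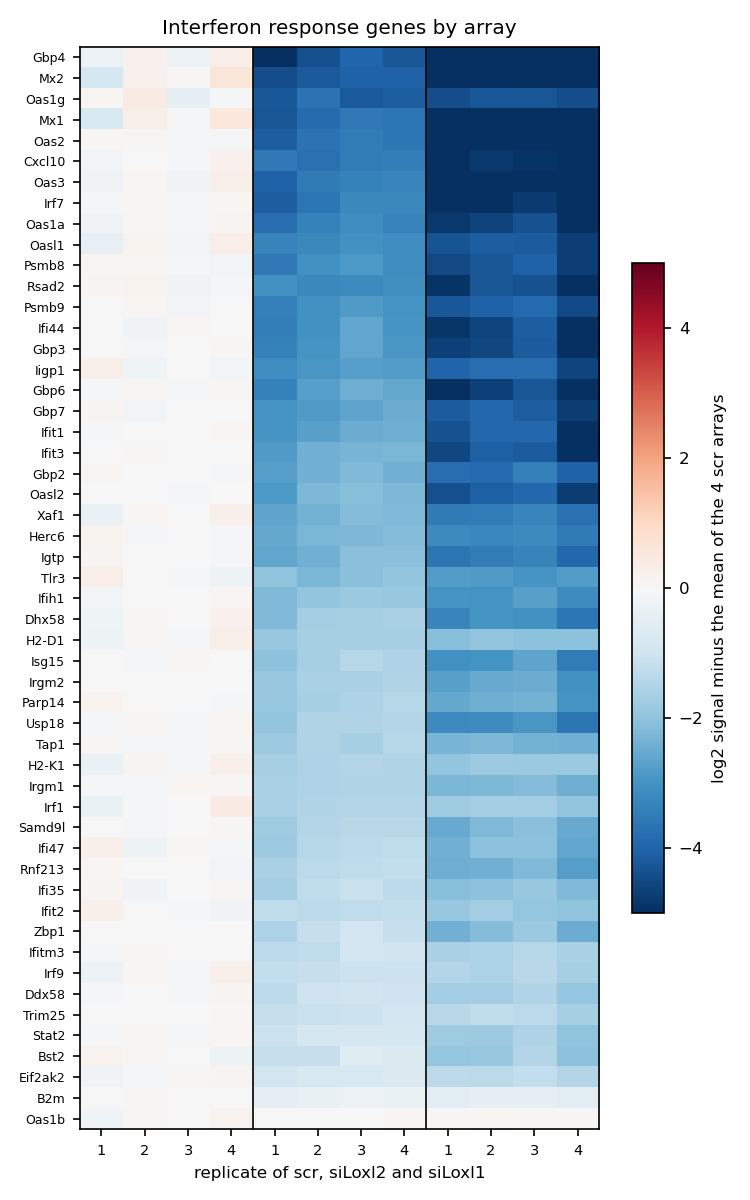
Heat map of 52 of the 53 measured interferon response genes, as log2 signal minus the mean of the 4 scr arrays, with colours capped at 5 in either direction; columns are replicates 1 to 4 of scr, siLoxl2 and siLoxl1. Nearly all genes are lower in siLoxl2 and lower again in siLoxl1, and Oas1b, at 0.03, is level.

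The interferon genes proper were lower too. Ifnb1, interferon beta, had the most negative difference of all genes that were above background on every array of both groups. It gave 1.86, 3.05, 2.63 and 3.46 in scr and -4.38, -4.15, -3.87 and -4.75 in siLoxl2, a fall by 7.04 ± 0.45 (adjusted p = 8.85e-09, limma), or 132-fold. The groups lay far apart, while siLoxl2 and siLoxl1 (-6.36 to -3.98) overlapped, with a difference of 1.32 that did not pass (limma adjusted p = 0.13). Ifnb1 was above background on only 1 of 4 siLoxl1 arrays, so that the size of this difference is not settled. Ifna4, an interferon alpha, gave -2.42, -2.46, -2.50 and -1.86 in scr, was above background on no siLoxl2 array, and was at least 24.1-fold lower. Its relatives in a gene cluster are similar in sequence, so that its probe may read more than 1 of them.

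The NF-kB list, of inflammatory cytokines and NF-kB targets, had 21 of 31 measured members lower in siLoxl2 and 5 higher, with a median of -1.38, and 18 were lower by at least 1. Csf2, the growth factor GM-CSF of granulocytes and macrophages, gave -0.86, 2.06, 1.77 and 2.87 in scr and -5.08, -5.83, -5.56 and -5.44 in siLoxl2, a fall by 6.93 ± 0.55 (adjusted p = 7.91e-08, limma). Cxcl1 gave 1.30, 3.56, 3.25 and 4.04 in scr and -2.86, -2.75, -2.14 and -3.08 in siLoxl2, a fall by 5.74. Cxcl2 and Cxcl3 were above background on all scr arrays and no siLoxl2 array, and were at least 68.6-fold and at least 30.0-fold lower. In each of these 4 genes scr replicate 1 was the lowest of the scr arrays and still lay above all siLoxl2 arrays.

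The T-cell attractant Ccl5 gave 6.18, 7.27, 6.97 and 7.46 in scr and 2.03, 2.36, 2.50 and 2.20 in siLoxl2, a fall by 4.70. The monocyte attractant Ccl2 fell by 1.94 and Il6, the cytokine of the acute phase response, by 1.29. The feedback inhibitors of NF-kB fell with its targets: Tnfaip3 (A20) by 4.20, from 3.87, 5.53, 5.19 and 6.00 to 0.97, 0.99, 0.93 and 0.92, and Nfkbia by 2.20. Of the subunits, Nfkb1 fell by 1.38, Relb by 1.65 (its other probes were at -1.53 to 0.09) and Rela by 0.24, and Nfkb2 did not pass (-0.39, adjusted p = 0.13). The other members that did not pass were Lcn2 (-0.22), Cxcl5 (-0.19), Ptgs2 (0.02) and Icam1 (0.59).

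The 5 members that rose were Il1rl1 by 3.48, Vcam1 by 0.73, Nfkbiz by 0.54, Ptges by 0.30 and Csf1 by 0.19. Il1rl1, the receptor of interleukin 33, gave 1.10, 1.36, 1.31 and 1.69 in scr and 5.01, 4.83, 4.72 and 4.82 in siLoxl2, while Il33 itself fell by 2.53. Against siLoxl1 no member of the list passed in either direction, and the median was 0.03. With slide 2 fitted alone 2 members were higher and 1 lower there, with normexp 1 and 1, without scr replicate 1 it was 1 higher, and without scr replicate 4 it was 1 lower. The mean level per array was 1.51 to 2.80 in scr, where replicate 1 was the lowest, 2.96 to 3.32 in siLox on the same slide, 0.48 to 0.53 in siLoxl2 and 0.35 to 0.51 in siLoxl1. Without scr replicate 1, 22 members were lower, 5 higher, and the median was -1.46.

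Cholesterol synthesis and uptake rose throughout: all 24 measured members were higher in siLoxl2 than in scr, 17 of them by at least 1, with a median of 1.19. Insig1, a sterol-regulated brake of the pathway, gave -0.86, -1.51, -1.62 and -2.07 in scr and 0.42, 0.96, 0.60 and 0.69 in siLoxl2, a rise of 2.18 ± 0.25 (adjusted p = 3.29e-06, limma). The sterol demethylation enzyme Msmo1 rose by 1.96 and the farnesyl diphosphate synthase Fdps by 1.49. The mean level of the list was 1.04 to 1.57 in scr and 2.47 to 2.59 in siLoxl2. Against siLoxl1 the median was -0.10, no member was higher and 1 was lower (Sc5d, -0.27, adjusted p = 0.014, and none with quantile normalization or in the authors' table), so that the rise was about as large in siLoxl1.

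Hypoxia and glycolysis genes were higher in 24 of 29 cases and lower in 2 (Ddit4, and Epas1 at a probe whose others were at 0.57 to 0.97), with a median of 0.58. Car9, a hypoxia-induced carbonic anhydrase, gave -2.67, -2.84, -3.07 and -3.03 in scr and -0.98, -0.88, -0.93 and -0.83 in siLoxl2, a rise of 2.00. Ankrd37 rose by 1.80, and the mitophagy receptors Bnip3 and Bnip3l by 1.25 and 1.20. Vegfa (0.09), Aldoa (-0.01) and Slc2a3 (-0.07) did not pass. The list was 4.10 to 4.33 per array in scr and 4.80 to 4.88 in siLoxl2, and against siLoxl1 the median was -0.02 with 1 gene passing (Hk2, lower, and none with quantile normalization or in the authors' table). The number of lower members was 0 to 3 over the alternatives, and 0 without scr replicate 2 or siLoxl2 replicate 4.

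The unfolded protein and amino acid response list went both ways. Of its 32 members 17 were higher and 6 lower, with a median of 0.32. Genes of the endoplasmic reticulum among those that rose were Sdf2l1 (2.07), Pdia4 (1.72), Creld2 (1.33) and Hspa5, the main chaperone of that compartment (1.17). The stress factor Atf3 fell by 1.90 and Sesn2 by 1.04, and Ddit3, the factor tied to cell death, did not pass (-0.19, adjusted p = 0.178). Pdia4, a disulfide isomerase, gave 1.83, 1.54, 1.46 and 1.41 in scr, 3.28, 3.21, 3.33 and 3.29 in siLoxl2 and 2.57, 2.62, 2.25 and 2.74 in siLoxl1. It was one of 2 members higher than in siLoxl1, by 0.73 (adjusted p = 0.0036). The other was Creld2, by 0.28.

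The cell cycle list was lower in siLoxl2 than in scr in 31 of 40 members and higher in 5, with a median of -0.51. Plk1, a kinase of mitosis, gave 5.38, 5.37, 5.27 and 5.37 in scr and 3.70, 3.74, 3.84 and 3.71 in siLoxl2, a fall by 1.60 ± 0.06 (adjusted p = 8.42e-11, limma). Mcm5, a subunit of the replicative helicase, fell by 1.14, the cytokinesis motor Kif23 by 1.12 and the spindle checkpoint kinase Bub1 by 0.95. The 5 members that rose were Ccnd2 (0.57), Gmnn (0.41, and -0.08 at its other probe), Tyms (0.25), Pcna (0.19) and E2f1 (0.15), and only 2 members were higher with quantile normalization. The mean level was 2.89 to 2.96 in scr, 2.41 to 2.54 in siLoxl2, 2.61 to 2.66 in siLoxl1 and 2.68 to 2.81 in siLox. Within slide 2, 11 of the 40 genes were lower in siLoxl2 than in siLoxl1, against 2.58% of all genes, and none was higher. Bub1 was lower by 0.29 there (adjusted p = 0.00494) and Plk1 by 0.26 (adjusted p = 0.0356). That count was 2 to 13 over the alternatives, with 2 under quantile normalization, 3 without siLoxl2 replicate 2 or 4, 4 without siLoxl2 replicate 1 and 6 without siLoxl1 replicate 4.

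**Figure D4:**
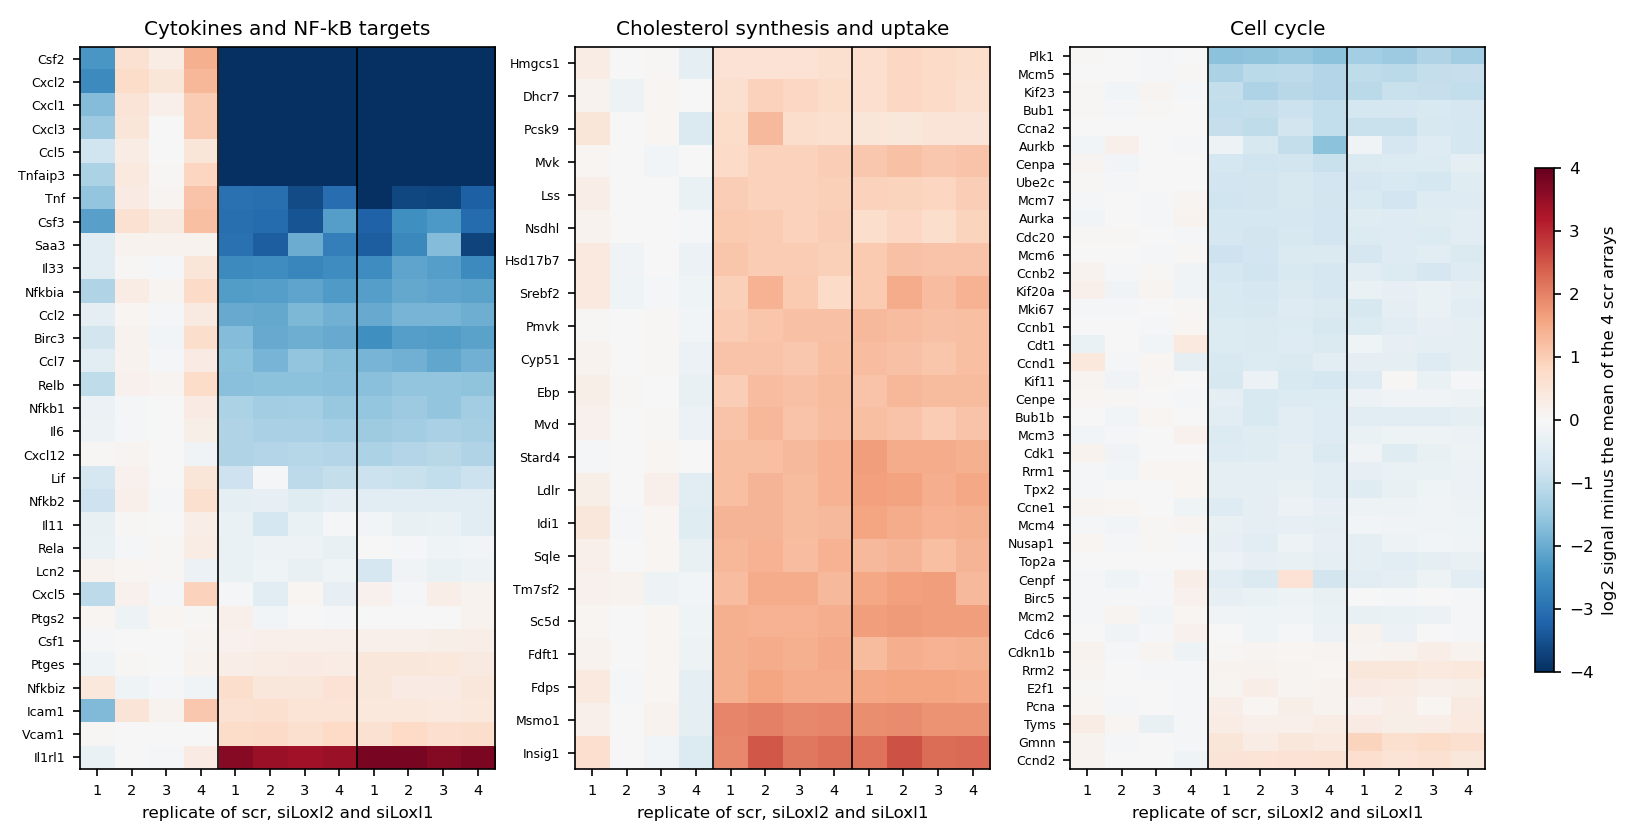
Heat maps of members of the NF-kB, cholesterol and cell cycle lists, as log2 signal minus the mean of the 4 scr arrays, with colours capped at 4 in either direction; columns are replicates 1 to 4 of scr, siLoxl2 and siLoxl1. The scr columns of the NF-kB list differ among themselves, with replicate 1 the lowest, and siLoxl2 and siLoxl1 differ by list medians of 0.03, -0.10 and -0.15.

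Immediate early genes, the transcription factors that cells switch on first after a stimulus, were lower in 11 of 21 cases and higher in 5, with a median of -0.39. Egr1 gave 4.43, 5.91, 5.57 and 6.35 in scr and 3.18, 3.13, 3.01 and 3.26 in siLoxl2, a fall by 2.42 ± 0.28 (adjusted p = 3.96e-06, limma). Ier2 fell by 1.60, while Maff, a small bZIP factor, rose by 1.43. As in the NF-kB list, scr replicate 1 was the lowest scr array for Egr1, Atf3 and Ier2. Among p53 targets 8 of 23 were higher and 11 lower (median -0.13), with falls of Eda2r by 1.36, Gdf15 by 1.14, Btg2 by 1.10 and Sesn2 by 1.04. None of the p53 list and none of the immediate early list passed against siLoxl1.

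Heat shock genes (7 of 13 higher, 3 lower, median 0.20) were led by the mitochondrial chaperones Hspd1 (0.76) and Hspe1 (0.50), and the probes of Hspa8 disagreed, at 0.45 for the probe that stands for it and -0.31 to 0.12 for the others. Of 24 cytosolic ribosomal protein genes 8 were higher and 1 lower (median 0.08), but with quantile normalization 1 was higher, 8 were lower and the median was -0.03. Rpl4 rose by 0.75 and kept its call under every alternative, whereas Rps3 and Rpl7 (0.35 and 0.30) lost theirs under quantile normalization. The genes of RNA interference, the pathway that an siRNA uses, had 4 of 14 members higher and 4 lower (median 0.03, and -0.07 with median scaling). Ago1, an Argonaute, rose by 0.46 and Ago3 fell by 0.32, Tsn rose by 0.33 and Tnrc6b fell by 0.44.

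Elastin, a substrate of the lysyl oxidases, was lower. Eln gave 0.89, 0.18, 0.55 and 0.23 in scr and -3.52, -3.83, -3.92 and -4.00 in siLoxl2, a fall by 4.28 ± 0.33 (adjusted p = 6.4e-08, limma), or 19.4-fold, with no overlap. The elastic fibre list as a whole had 7 of 18 members higher and 5 lower, against 41.4% and 23.4% of all genes. Its median was 0.16, and -0.04 with quantile normalization. Emilin2 and Efemp1 (fibulin 3), glycoproteins of elastic fibres, rose by 2.55 and 2.32, and Adamtsl4, which binds fibrillin, rose by 1.42. Against siLoxl1, Eln was 0.39 higher and did not pass (adjusted p = 0.63), and no member of the list passed.

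Fibrillar and fibril-associated collagens were lower in 8 of 16 cases and higher in 1, with a median of -0.40. Col14a1, a collagen on the surface of fibrils, gave 2.88, 2.52, 2.59 and 1.60 in scr and -0.74, -1.17, -1.21 and -0.97 in siLoxl2, a fall by 3.42 (its other probe by 2.37). Col6a3, a chain of the beaded filament collagen, gave 5.13, 4.89, 5.05 and 4.58 in scr and 2.84, 2.71, 2.91 and 2.83 in siLoxl2, a fall by 2.09. Col5a3 fell by 2.12 and Col27a1 by 1.78. The chains of type I collagen went apart: Col1a2 fell by 0.67, from 8.56 to 8.66 to 7.82 to 7.97, and Col1a1 did not pass (0.14, adjusted p = 0.114). Col12a1 rose by 0.71. The mean of the list was 2.31 to 2.52 in scr, 1.62 to 1.85 in siLoxl2 and 1.52 to 1.62 in siLoxl1, and no member passed between the knockdowns.

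Of 23 collagen processing genes 11 were higher and 3 lower, against 41.4% and 23.4% of all genes. Their median of 0.10 was below that of all genes (0.17). The collagen-degrading protease Ctsk rose by 1.82, from 4.29 to 4.99 in scr to 6.45 to 6.54 in siLoxl2, and the prolyl hydroxylase subunit P4ha2 rose by 0.91. The procollagen proteinases Adamts14 and Tll1 fell by 1.84 and 1.17, and at their other probes by 0.53 and 0.59. In the basement membrane list 7 of 18 genes were higher and 4 lower, close to the shares of all genes. Lama4, a laminin chain, rose by 1.53, Nid2 by 1.05, and the proteoglycan Agrn and the peroxidase Pxdn, which cross-links type IV collagen, fell by 1.39 and 1.24. The basement membrane median of 0.09 was slightly below 0 with quantile normalization, median scaling, the authors' table, no filter, the mean of all probes and without scr replicate 4. Agrn was 0.52 higher than in siLoxl1 (adjusted p = 0.00417).

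Matrix glycoproteins and proteoglycans went both ways, with 9 of 23 members higher and 8 lower, against 41.4% and 23.4% of all genes. All 8 of the lower members were lower by at least 1. Cthrc1, a secreted protein of activated fibroblasts, gave 2.98, 2.75, 2.69 and 2.44 in scr and -1.39, -1.50, -1.20 and -1.43 in siLoxl2, a fall by 4.09 ± 0.19 (adjusted p = 4.55e-10, limma). Postn (periostin), which takes part in collagen assembly, gave 3.85, 3.44, 3.57 and 3.49 in scr and 0.83, 0.59, 0.61 and 0.53 in siLoxl2, a fall by 2.95. Aspn was at -2.74 to -1.83 in scr and -6.59 to -5.42 in siLoxl2, where 1 of 4 arrays was above background, so that the size of its fall is not settled. Spp1 (osteopontin) rose by 2.51. The list median was 0.18 and -0.03 with quantile normalization.

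Among proteases and their inhibitors 10 of 22 genes were higher and 4 lower, against 41.4% and 23.4% of all genes, with a median of 0.33. Mmp3 (stromelysin) gave 0.11, -0.11, -0.08 and -0.11 in scr and 5.01, 5.17, 5.29 and 5.15 in siLoxl2, a rise of 5.20 ± 0.17 (adjusted p = 1.86e-11, limma), or 36.8-fold. The collagenase Mmp13 gave 0.96, 0.52, 0.50 and 0.46 in scr and 3.62, 3.41, 3.46 and 3.31 in siLoxl2, a rise of 2.84, and Mmp10 rose by 2.34. These 3 genes lie on chromosome 9 and none overlapped between the groups. Mmp9 passed as lower, but was above background on 0 arrays of either group, so that no fold is given. Against siLoxl1, Mmp3 and Mmp13 differed by -0.06 and 0.20 and no member of the list passed.

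**Figure D5:**
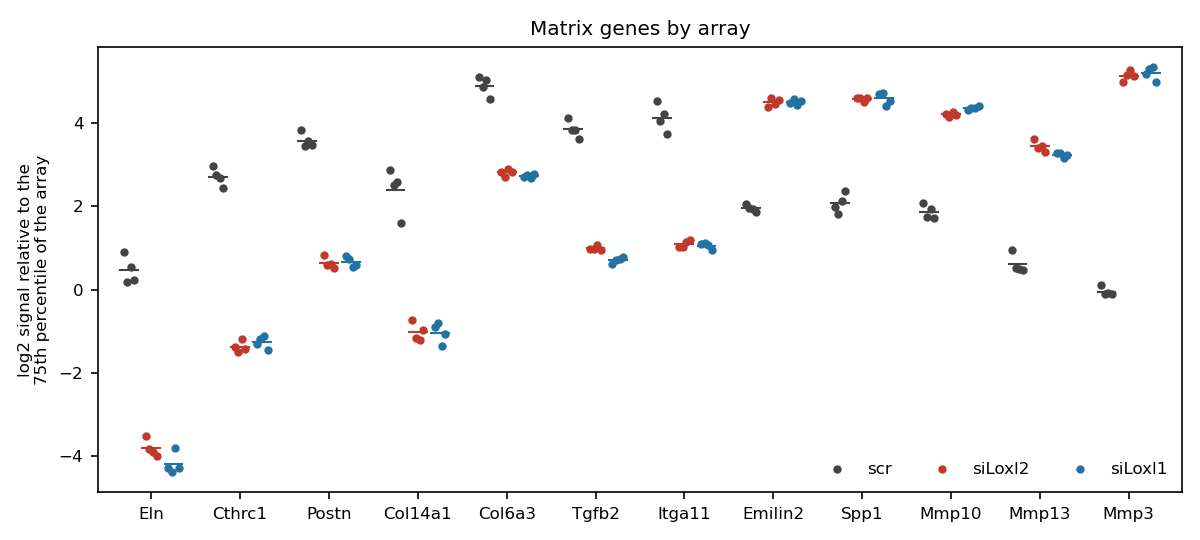
Signal of 12 matrix genes (log2 intensity minus the array's 75th percentile) on the scr, siLoxl2 and siLoxl1 arrays; points are arrays and bars are means. Eln, Cthrc1, Postn, Col14a1 and Col6a3 are lower and Mmp3 and Mmp13 higher in siLoxl2 than in scr, with siLoxl1 close to siLoxl2.

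Genes of the signalling of TGF-beta, a driver of matrix production, and of BMP showed no common direction. Of 30 genes 11 were higher and 9 lower, with a median of 0.03 that was -0.14 with quantile normalization. Over all genes 41.4% were higher and 23.4% lower. The ligand Tgfb2 gave 4.12, 3.84, 3.85 and 3.62 in scr and 0.98, 0.99, 1.07 and 0.96 in siLoxl2, a fall by 2.86 ± 0.08 (adjusted p = 8.8e-12, limma), and its other probe fell by 2.56. Its co-receptor Tgfbr3 rose by 2.48, from 0.89 to 1.08 to 3.35 to 3.52. The ligand Bmp4 was 2.83-fold lower, and the ligand Bmp6 rose by 1.53. Among regulators of epithelial-mesenchymal transition 7 of 14 were higher and 3 lower (median 0.14, slightly below 0 with quantile normalization): Krt18 fell by 3.41, Foxc2 by 0.81, and the mesenchymal factors Prrx1 and Twist2 rose by 1.01 and 0.86.

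Of 23 integrin and focal adhesion genes 11 were higher and 5 lower (median 0.11, and -0.01 with quantile normalization), against 41.4% and 23.4% of all genes. Itga11, a collagen-binding integrin of fibroblasts, gave 4.54, 4.06, 4.22 and 3.73 in scr and 1.03, 1.03, 1.15 and 1.18 in siLoxl2, a fall by 3.04, and the fibronectin receptor chain Itga4 rose by 1.40. Lims1 and Itga3 fell by 1.06 and 1.02. The contractile genes of myofibroblasts moved by less than 1 in every case: 9 of 20 were higher and 3 lower, and with quantile normalization 4 were higher and 6 lower. Cald1 rose by 0.81 and Des and Myh10 fell by 0.85 and 0.75. Acta2, the defining gene of myofibroblasts, was 8.49 to 8.73 in scr and 8.75 to 8.86 in siLoxl2 (0.22, adjusted p = 0.0107, limma), close to the median of all genes (0.17). Tpm1 rose by 0.75 at its brightest probe, while its other probes were at -0.99 to 0.38. Of 15 targets of YAP and serum response factor 7 were higher and 5 lower (median 0.14, and -0.07 with quantile normalization), and Nuak2, Fhl1, Ajuba and Amotl2 fell by 1.49, 1.13, 1.08 and 0.61.

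Genes of the alveolar fibroblast and the lipofibroblast, a fat-storing lung fibroblast, were higher in 6 of 12 cases and lower in 5, and their median of 0.19 was -0.14 with no filter on dim probes. Fgf10, a growth factor for the lung epithelium, gave -2.06, -2.15, -2.04 and -2.12 in scr and 1.03, 0.89, 1.11 and 1.03 in siLoxl2, a rise of 3.11 ± 0.06 (adjusted p = 1.91e-13, limma). The lipid droplet gene Plin4 and the fatty acid carrier Fabp4 rose by 2.90 and 1.72, whereas Pparg, the master regulator of fat storage, gave 0.93 to 1.10 in scr and -0.79 to -0.76 in siLoxl2 and fell by 1.76. Each was within 0.34 of its level in siLoxl1.

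Against siLoxl1, the lists not yet set beside it had few calls, which were not counted under the alternatives. Of the heat shock genes 1 was lower (Hspd1, -0.15), of the RNA interference genes 2 (Tsn at -0.24 among them), of the TGF-beta and BMP genes 2, and of the matrix glycoproteins 2 (Has2 at -0.43 among them). Of the integrin and focal adhesion genes 1 was higher (Itga3, 0.39) and of the YAP and serum response factor targets 1 (Fhl1, 0.32). None passed among the ribosomal, collagen processing, epithelial-mesenchymal transition, contractile and lipofibroblast genes.

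The labelled cell type was checked against its markers, and all 15 fibroblast markers were above background on every scr and siLoxl2 array. Their mean level was 4.43 to 4.80 in scr and 4.78 to 4.86 in siLoxl2. Among them 7 were higher and 4 lower, against 41.4% and 23.4% of all genes. Fap, Pdgfra and S100a4 rose by 1.46, 1.29 and 1.11, and Lum fell by 1.34. Markers of other lung cells were in part detected and in part not. On all 8 arrays of both groups 6 of 13 epithelial markers with a probe were above background (Krt8 and Krt18 among them), 6 of 11 endothelial (Pecam1 and Cdh5), 13 of 18 leukocyte (Ptprc and Csf1r), 7 of 8 mesothelial (Wt1 and Msln) and 8 of 11 pericyte and smooth muscle markers. Epcam, Cdh1, Nkx2-1, Sftpc, Sftpb and Sftpa1 of epithelium, Erg and Tie1 of endothelium, and Ms4a1 and H2-Aa of B cells and antigen-presenting cells were above background on 0 arrays of either group, as were the mesothelial marker Calb2 and the pericyte markers Kcnj8 and Abcc9. In that order of the lists, 6, 2, 3, 1 and 2 markers were above background on no array. Although H2-Aa was not detected, the class II gene H2-Ab1, which is in no marker list, was above background on every array of both groups. Cd74 of the leukocyte list was above background on 1 scr array and on 4 siLoxl2 arrays.

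The markers of other cells that were measured moved both ways. Krt8 fell by 4.36 and Krt18 by 3.41, and Aqp5 rose by 3.50 and Abca3 by 1.39, in a list of 6 measured epithelial markers of which 2 were higher and 3 lower. Of 7 mesothelial markers 5 were lower and 2 higher (median -1.05, mean level 0.76 to 0.89 in scr and 0.05 to 0.32 in siLoxl2): Wt1 fell by 2.64, Gpm6a by 1.58 and Lrrn4 by 1.43, and Krt19 rose by 2.39. Of 9 pericyte and smooth muscle markers 4 were lower and 2 higher (mean 2.95 to 3.42 and 2.39 to 2.82). Rgs5 was at -2.28 to -1.50 in scr and -7.07 to -3.41 in siLoxl2, where 1 of 4 arrays was above background, so that the size of its fall is not settled (-3.99, and -4.81 without siLoxl2 replicate 4). Cspg4 fell by 1.40 and Des by 0.85, and Pdgfrb rose by 0.66. Of 8 endothelial markers 3 were higher and 4 lower. Emcn was at least 5.79-fold lower and Egfl7 rose by 1.14. Cdh5 fell by 0.77 (limma adjusted p = 0.0462), a call lost under 10 of the alternatives. Tek was above background on every siLoxl2 array and on no scr array. Its bound was 1.53-fold higher, but its difference was -0.34 with normexp, so that its direction depends on the background correction.

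Of 15 leukocyte and macrophage markers 6 were higher, 1 was lower and 8 did not pass, against 41.4% higher and 23.4% lower of all genes. The list median was 0.50, or 0.30 without scr replicate 1. Itgax rose by 2.60 (3 of 4 scr arrays above background, 1.97 without scr replicate 1 and 0.90 with normexp) and Cd68 by 1.16. Lyz2 rose by 0.74, but scr replicate 4, at 1.33, lay within the range of siLoxl2 (1.085 to 1.422). Mrc1 rose by 0.70 (-0.13 with normexp, limma adjusted p = 0.0895), and Ptprc, the marker common to leukocytes, fell by 0.43. The mean of the list was -1.53 to -0.61 in scr and -0.67 to -0.52 in siLoxl2, and the ranges overlapped. Against siLoxl1, Tek (0.86) and Vwf (0.50) were higher and Wt1 (-0.26) lower, and no other marker passed. The part of any of these cell types in the other results was not tested.

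The largest rises among genes measured on every array of both groups were not in the lists of pathways, apart from Mmp3. Akr1c18, an aldo-keto reductase that inactivates progesterone, gave -2.04, -1.57, -1.44 and -1.23 in scr and 4.51, 4.39, 4.43 and 4.28 in siLoxl2, a rise of 5.98 ± 0.13 (adjusted p = 5.44e-13, limma), or 63.1-fold. The guanine deaminase Gda rose by 4.72, the urea transporter Slc14a1 by 4.40, the prolactin family gene Prl3a1 by 4.40 and Crct1 by 4.25, where its other probe rose by 2.16. Bcl2l15 rose by 4.22, the class II gene H2-Ab1 by 4.09, the receptor Adcyap1r1 by 4.01 and Hsd11b1, which regenerates active glucocorticoid, by 3.82. All 10 were within 0.53 of their level in siLoxl1 and did not pass there.

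The most negative differences were those of Ifnb1 and Csf2, followed by Traf1, an adaptor of TNF receptors, which gave 1.09, 3.36, 3.07 and 4.03 in scr and -3.11, -2.98, -3.04 and -2.85 in siLoxl2, a fall by 5.88 ± 0.42 (adjusted p = 3.11e-08, limma). After Cxcl1 came Cd83 (a fall by 5.19), a surface protein of activated antigen-presenting cells, the synaptotagmin Syt10 (4.72), Ccl5, Adtrp (4.64), Gbp4 and Phf11b (4.50). In Traf1, Cd83 and Adtrp scr replicate 1 was the lowest scr array. Phf11b was higher than in siLoxl1 by 1.72 (limma adjusted p = 0.000614). Gbp4 also passed as higher, but was above background on no siLoxl1 array, so that the size of its difference there is not settled. The other 8 did not pass.

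Some genes were above background in 1 group only, and for these the fold is a lower bound. Derl3, of the machinery that clears misfolded proteins from the endoplasmic reticulum, was above background on no scr array and at 0.06, 0.15, 0.30 and -0.04 in siLoxl2, at least 40.3-fold higher. Such genes passed the filter only through a group in which they were bright, so that no p-value is given here. The growth factor Gdf10 was at least 17.5-fold higher, the water channel Aqp8 at least 16.7-fold, the long noncoding RNA Snhg11 at least 16.7-fold and Ttyh1 at least 12.4-fold. In the other direction, besides Cxcl2, Cxcl3 and Ifna4, the collagen gene Col22a1 was at least 39.5-fold and the ephrin receptor Epha8 at least 33.4-fold lower, and in both of these scr replicate 1 was the lowest scr array by more than 2 (log2).

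A smaller set of genes set siLoxl2 apart from both scr and siLoxl1 in the same direction, so that the comparison within slide 2 stands beside the one across slides. They were selected for passing both comparisons without overlap, so that these calls are conditions of entry and no separate support. Rcan1, an inhibitor of calcineurin, gave 1.39, 1.72, 1.70 and 2.03 in scr, 2.25, 2.22, 2.33 and 2.21 in siLoxl2 and 1.17, 1.21, 1.19 and 1.14 in siLoxl1. It was 0.54 higher than in scr (adjusted p = 0.000365, limma) and 1.07 higher than in siLoxl1 (adjusted p = 6.05e-05). The chloride channel family gene Clic5 was 1.04 and 1.09 higher, Csn3 2.78 and 0.80, Plek 1.51 and 0.90, the glutathione transferase Gsta2 1.86 and 0.61, and Cd99l2 0.47 and 0.59. Pdia4, described above, and Adra2a, Hid1 and Vwf complete the higher side, and Vwf was 0.10 higher than scr and did not pass with normexp.

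On the lower side, Has2, the main hyaluronan synthase of fibroblasts, gave 2.95, 2.92, 3.07 and 3.09 in scr, 1.98, 1.72, 1.78 and 1.70 in siLoxl2 and 2.30, 2.21, 2.26 and 2.13 in siLoxl1. It differed by -1.22 from scr (adjusted p = 1.64e-09, limma) and by -0.43 from siLoxl1 (adjusted p = 0.00172). Passing without overlap in both comparisons was the condition for entering this set. The chromatin remodeller Chd7 was at -1.39 and -0.58, the linker histone H1f5 at -0.87 and -0.44, and Megf9 at -0.56 and -0.50 against scr and siLoxl1. The chemokine Ccl9 (-0.71 and -0.65), the imprinted gene Mest (-0.89 and -0.57), the mitotic motor Kif15 (-1.46 and -0.44), Pax3 (-0.51 and -0.43), Slc45a4 (-0.74 and -0.42) and Prl2c5 (-0.50 and -0.42) passed as well, but each lost the call against siLoxl1 in at least 1 alternative, as did Adra2a (1.64 and 0.64).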

How the data were processed

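Total RNA was labelled with Cy3 and hybridised to Agilent mouse arrays, 1 sample per array, and per the file headers the images were read with Agilent Feature Extraction 10.7.3.1. Per the file headers, the deposited processed intensity is background-subtracted and detrended within each array and not normalized between arrays, and probe positions are those of build mm9. The deposited files also hold other values, flags of 0 or 1 for a spot above background, saturated or an outlier. The authors' deposited value table is on a log2 scale; it correlates with the scanner values at r = 0.997 to 0.999, its sorted columns differ by at most 0.000965 and its column medians are 4.84, as after quantile normalization; no source used here names the method.

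Here log2 intensity was set relative to each array's 75th percentile over the non-control probes. Probes entered where all 4 arrays of some group had them well above background, and the brightest probe stood for its gene (22649 genes from 32435 probes). RefSeq (GRCm38.p6) named 28026 of 55681 probes (50.3%), and 1651 symbols changed; the others kept the name in the file. All 16 arrays were fitted with 1 mean per group in limma 3.58.1 (R 4.3.3), with Benjamini-Hochberg adjustment over all genes and a threshold of 0.05. A gene above background on no array of 1 group has a bound: the mean of the bright group against the higher, per array, of the lowest signal well above background and the probe's own. The fit was tested on simulated data.

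The comparison, its gene lists and tests were chosen with earlier results of these data known. Named genes are the 5 lysyl oxidases, up to 4 passed members with the largest change per list (or 2 where none passed), the 10 highest and 10 lowest that passed without overlap and above background on every array of both groups, up to 10 per side that also passed against siLoxl1 in the same direction, and up to 5 bounds per side. Genes named beyond that, mainly other members of the interferon, NF-kB, cholesterol, hypoxia, cell cycle, collagen and marker lists, were chosen after their values were seen. Alternatives changed the arrays fitted, scaling, background correction, filter, probe rule, replicate block and each replicate. The replicate numbers showed almost no pairing of scr with siLoxl2 samples, and pairing of siLoxl2 with siLoxl1 was not checked. Some genes that enter the counts are not reported here by name.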

Additional observations from a re-analysis of the deposited data

Results flagged for a closer look

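In 13 of 322 groups of 4 arrays tested (4.04%), 1 array of a named gene lay apart from the other 3 by more than Dixon's 95% critical value. Chance flags about 1 in 20 groups, so that this number is no more than chance gives. All values are log2 intensity minus the array's 75th percentile.

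In siLoxl2, Loxl1 was at 5.65 in replicate 1 (5.78 to 5.80 in the others) and Pxdn at 3.88 in replicate 1 (3.80 to 3.81). Oas1g was at -7.71 in replicate 2 (-8.24 to -8.16), below background on each array. In replicate 3, Spp1 was at 4.52 (4.60 to 4.61), Cxcl3 at -7.32 (-7.83 to -7.75), again below background, Hsph1 at 4.81 (4.68 to 4.69) and H1f5 at 0.97 (0.77 to 0.79). In replicate 4, Bcl2l15 was at 3.24 (3.09 at the lowest of the others).

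In scr, the proteases Mmp3 and Mmp13 both had their high value in replicate 1, at 0.11 (-0.11 to -0.08) and 0.96 (0.46 to 0.52). Gdf10 was at -6.41 in replicate 2 (-6.69 to -6.68), below background, Plk1 at 5.27 in replicate 3 (5.37 to 5.38) and Ifna4 at -1.86 in replicate 4 (-2.50 to -2.42). In none of these 13 cases did the array reach the range of the other group, except for Loxl1, whose groups overlapped. The named genes were mostly chosen for large differences, in part for no overlap, so that this follows largely from the choice.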

How the results depend on the processing

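The genes that differed between siLoxl2 and scr numbered 13013 to 21756 over the alternatives (limma). Loxl2 stayed lower and past the threshold in all of them, at -0.91 to -1.59. Against scr, 150 of 161 named genes kept direction and call in each of the 18 alternatives that measured them. Against siLoxl1, 15 of the 22 named genes tested there did, and Adra2a, Ccl9, Mest, Kif15, Pax3, Slc45a4 and Prl2c5 did not. Counts that moved by over 1.5 times, with cause not tested, were these. With normexp 10023 genes were lower and 938 higher by at least 1. With no filter on dim probes, which adds genes, 12379 were lower, 7563 lower by at least 1 and 19768 did not overlap. With probes above background on all 16 arrays, which tests fewer genes, 1101 were higher by at least 1.

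Against siLoxl1, the 8 arrays of slide 2 fitted alone gave 612 genes higher and 1383 lower. The lower count of 585 was 248 with quantile normalization, 249 in the authors' table, 1180 with median scaling, 917 with normexp, 257 with no filter and 339 with the replicate block. Leaving out 1 replicate gave 230 (without siLoxl2 replicate 4) to 844 (without scr replicate 1) lower genes and 218 to 398 higher ones. Leaving out siLoxl1 replicate 4, an alternative chosen after seeing the data because 8 genes there lay more than 5 (log2) below the other siLoxl1 arrays, gave 367 lower genes.

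Signs turned for Loxl1 (-0.0615 with quantile normalization and -0.0627 in the authors' table), Mrc1 (-0.13) and Tek (-0.34) with normexp, and Tpm1 (-0.29) with the mean of its probes. List medians changed sign in 9 of 30 lists with quantile normalization and in the authors' table, in 4 with median scaling, 2 each with no filter, the mean of probes and without scr replicate 4, 1 with probes above background on all arrays, and 0 in the others. The replicate block called 14442 genes against scr, left 1 hypoxia gene lower, and left 5 cell cycle genes lower than in siLoxl1. It ended the calls of Adra2a, Kif15, Slc45a4 and Prl2c5 against siLoxl1 (limma adjusted p = 0.0548, 0.084, 0.0859 and 0.0523) and of no other named gene. In scr and siLoxl2, samples of the same number barely deviated together (correlations of 0.0096 to 0.032), and this was not checked for siLoxl2 and siLoxl1. Slide and scan were not separable from the groups, so no fit with slide as a term could be made for siLoxl2 against scr. Signal near background limits the genes given as bounds.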
